A study of Mus musculus with 2 samples.

Results

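Integrins and laminins are the receptors and part of the matrix by which skin cells hold to their surroundings. Their genes were taken here by symbol, as every integrin alpha chain (Itga), integrin beta chain (Itgb) and laminin alpha, beta or gamma chain (Lama, Lamb, Lamc) with a probe of a single symbol on the array. This gave 36 of 22180 measured genes, read by 37 of 33793 probes, with 26 integrin and 10 laminin chains. Itga10 had no probe with a single symbol and was not analysed here.

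The samples were dorsal skin of 13-week-old female mice of the inbred, dermatitis-prone strain NC/Nga. Both groups carried dermatitis induced with an ointment of Dermatophagoides farinae (house dust mite) extract, applied over 6 weeks. The control group had the mite ointment, and the ZAG group in addition had recombinant ZAG, zinc-alpha-2-glycoprotein, applied to the skin over the same 6 weeks, at 1 µg/mL by the series design text. No skin without dermatitis was used here, so each difference is between inflamed skin with and without ZAG. The design text names 3 mice in each group, but the table used here has 1 array per group, and the sources used here do not say whether an array holds 1 mouse or a pool.

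An integrin is a pair of an alpha and a beta chain that spans the membrane, binds a ligand outside and joins the cytoskeleton inside. A laminin is a cross-shaped trimer of an alpha, a beta and a gamma chain, and laminin trimers form the first layer of every basement membrane. In the epidermis, integrin α6β4 binds laminin-332 at hemidesmosomes, the rivets that tie basal keratinocytes to the dermis, and inherited loss of any of their chains causes blistering. Leukocytes carry the β2 and β7 integrins, with which they stop on vessel walls and enter tissue. The walls of small vessels rest on laminins that hold the α4 or α5 chain.

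Levels are the deposited values, read as log2, and a difference is the ZAG array minus the control array. Since each group has 1 array, values carry no error between replicates and differences were left untested. As a scale for probe error, differences of probes of the same gene spread with an SD of 0.255 (log2) around their mean. This SD was taken over 804 genes with more than 1 probe and says nothing of the spread between mice. A background gauge of 3.15 (log2) was set at the 95th percentile of 1373 olfactory and vomeronasal receptor genes, which work mainly in the nose. Of the 36 genes, 33 had a mean level at or above that gauge, and Itgad, Itgb2l and Lama1 lay below it on both arrays. In bulk skin, fewer cells of a type and less RNA per cell cannot be told apart.

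Most integrin and laminin genes were lower on the ZAG array. Of the 33 genes at or above the gauge, 28 were lower, 4 higher and 1 equal, with a median log2 difference of -0.35. Over all 13652 genes at or above the gauge the median was 0.02, and 47.5% were lower. At least 1.5-fold lower were 8 of the 33 (24.2%), against 4.53% of all genes, and 0 were at least 1.5-fold higher, against 2.38%. The 8 were Itgam, Itga2, Itgb4, Itga1, Lama3, Lamb3, Itgb2 and Lamb2. None of the 33 was 2-fold lower, a size that 0.989% of all genes passed, although Itgam stood just short of it. Laminin chains were lower in 9 of 9 cases, with a median of -0.42, and integrin chains in 19 of 24, with a median of -0.29.

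**Figure D1:**
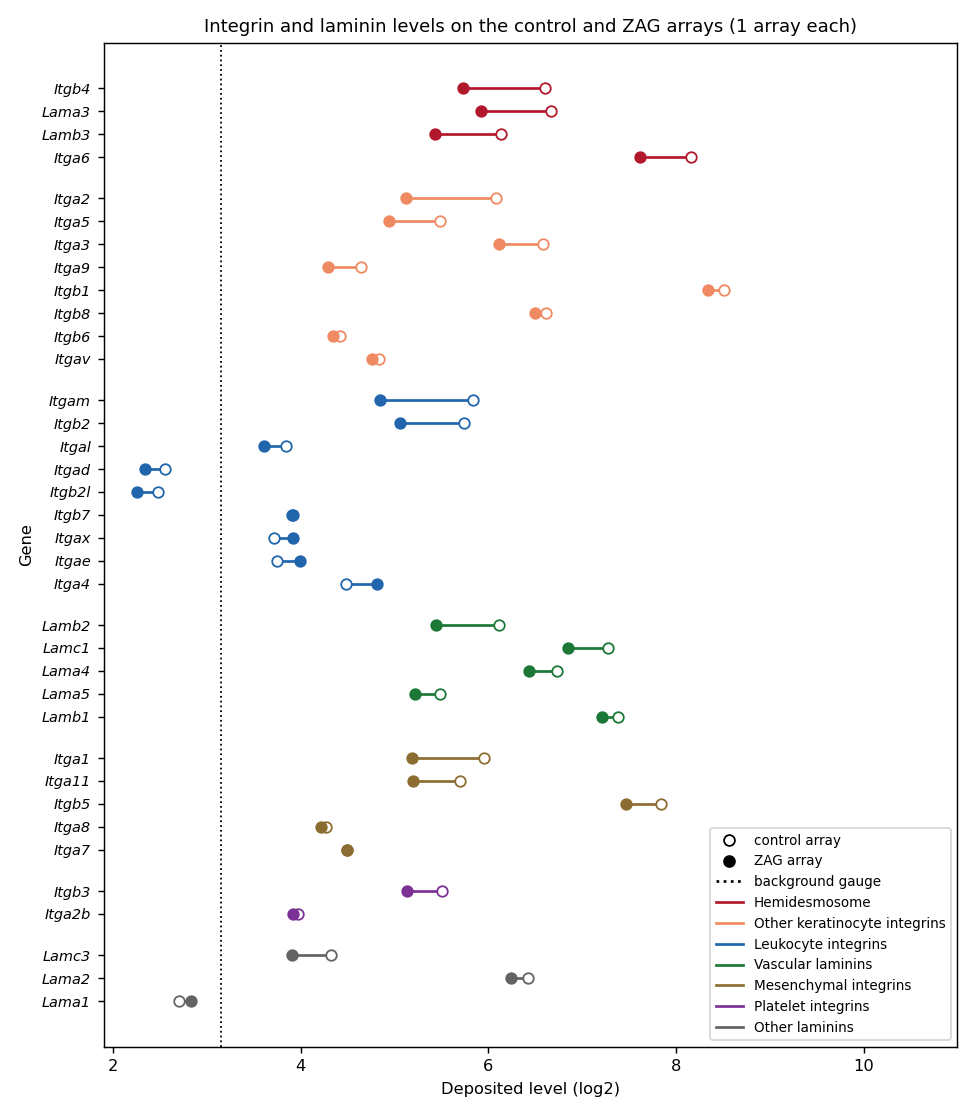
Level of each gene (horizontal axis, deposited log2 value) on the control array (open points) and the ZAG array (filled points), 1 array each, grouped by class, with the background gauge as a dotted line at 3.15. The 4 measured hemidesmosome genes are lower on the ZAG array, while Itga4, Itgae and Itgax are higher.

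Promoter sequences are shown for 4 genes with a matched window. Lamb3 and Itga2 are keratinocyte adhesion genes that were lower with ZAG. Itgam and Itgax are neighbouring leukocyte genes, of which Itgam was lower (-0.9997) and Itgax slightly higher (0.21). The Itgax difference lay within the SD between probes of a gene. RefSeq windows (GRCm38.p6) run from 250 bases before to 50 bases after the gene start and were matched for 23 of the 36 genes. Itgb4, Itga6, Lama3 and Itgb2 had no matched window, so Lamb3 is the only measured hemidesmosome gene shown. The windows are chr1:193301744-193302043 on the plus strand for Lamb3, chr13:114932051-114932350 on the minus strand for Itga2, chr7:128062390-128062689 on the plus strand for Itgam and chr7:128129300-128129599 on the plus strand for Itgax. Lamb3 has 2 windows in the table, and the upstream one is shown. Capitals mark matches, on either strand, to TGANTCA (the AP-1 motif), GAGGAAG (the core that PU.1, a myeloid factor, binds), GGGCGG (the SP1 box) or TATAAA (the TATA box).
Lamb3: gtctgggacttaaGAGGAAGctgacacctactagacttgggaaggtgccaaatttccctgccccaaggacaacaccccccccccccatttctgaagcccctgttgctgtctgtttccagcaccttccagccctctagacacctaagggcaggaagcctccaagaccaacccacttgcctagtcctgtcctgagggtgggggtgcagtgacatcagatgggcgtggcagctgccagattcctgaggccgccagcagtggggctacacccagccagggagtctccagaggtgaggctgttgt
Itga2: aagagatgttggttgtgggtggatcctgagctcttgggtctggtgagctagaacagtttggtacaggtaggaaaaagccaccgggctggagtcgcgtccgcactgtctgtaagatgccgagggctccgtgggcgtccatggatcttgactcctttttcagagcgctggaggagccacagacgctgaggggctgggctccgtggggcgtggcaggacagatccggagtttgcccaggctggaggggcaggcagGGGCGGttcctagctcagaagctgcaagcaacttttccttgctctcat
Itgam: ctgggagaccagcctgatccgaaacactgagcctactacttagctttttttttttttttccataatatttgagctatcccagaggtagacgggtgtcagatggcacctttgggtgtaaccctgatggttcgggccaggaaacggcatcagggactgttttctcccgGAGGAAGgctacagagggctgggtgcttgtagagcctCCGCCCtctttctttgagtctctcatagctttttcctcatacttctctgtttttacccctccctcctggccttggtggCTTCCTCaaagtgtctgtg
Itgax: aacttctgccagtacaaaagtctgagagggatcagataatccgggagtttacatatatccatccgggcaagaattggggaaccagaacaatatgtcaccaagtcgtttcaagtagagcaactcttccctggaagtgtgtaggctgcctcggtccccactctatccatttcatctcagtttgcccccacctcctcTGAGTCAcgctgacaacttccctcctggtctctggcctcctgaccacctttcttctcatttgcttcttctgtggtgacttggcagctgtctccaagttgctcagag

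The Itgam window holds GAGGAAG at 2 places, at positions -84 and 32 from the gene start, and an SP1 box between them. In the Itgax window the sole match is an AP-1 motif. Lamb3 has 1 GAGGAAG match and Itga2 has 1 SP1 box just past its start. None of the marked matches overlap. Over the 27 windows of the family (Itga10 included), GAGGAAG was found in 9 (33.3%), against 13.6% of all 32851 windows. Those with GAGGAAG belonged to Itga11, Itga2b, Itgam, Itgav, Itgb2l, Itgb6, Itgb7, Lama2 and Lamb3, so they were not confined to leukocyte genes. For the SP1 box the count was 12 of 27 (44.4%, against 35.7%), for TGANTCA 3 of 27 (11.1%, against 7.81%) and for TATAAA 0 of 27, against 13.6%. The genes with TGANTCA were Itga3, Itga9 and Itgax, of which Itga3 (-0.48) and Itga9 (-0.35) were lower and Itgax (0.21) higher. These matches describe letters in a window and are not evidence of a bound factor.

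All 4 measured hemidesmosome genes were lower on the ZAG array. Itgb4, the β4 chain found almost wholly in hemidesmosomes, read 6.60 in control and 5.73 with ZAG, which is -0.87 on the log2 scale (1.83-fold lower). Lama3, the alpha chain of laminin-332, read 6.67 and 5.92, a difference of -0.75 (1.68-fold lower). Lamb3, its beta chain, read 6.14 and 5.43, a difference of -0.71 (1.63-fold lower). Both measured chains of laminin-332 and the β4 chain of its receptor thus lay past 1.5-fold. Itga6, which pairs with β4 in keratinocytes and with β1 in other cells, including endothelium, read 8.17 and 7.61, a difference of -0.55 (1.47-fold lower), just short of 1.5-fold. The median of the 4 was -0.73. Itgb4 also had a second probe, shared with another transcript and left out here, which read 3.35 and 3.37, close to the gauge. With that probe averaged in, the Itgb4 difference was -0.43 and no longer past 1.5-fold.

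**Figure D2:**
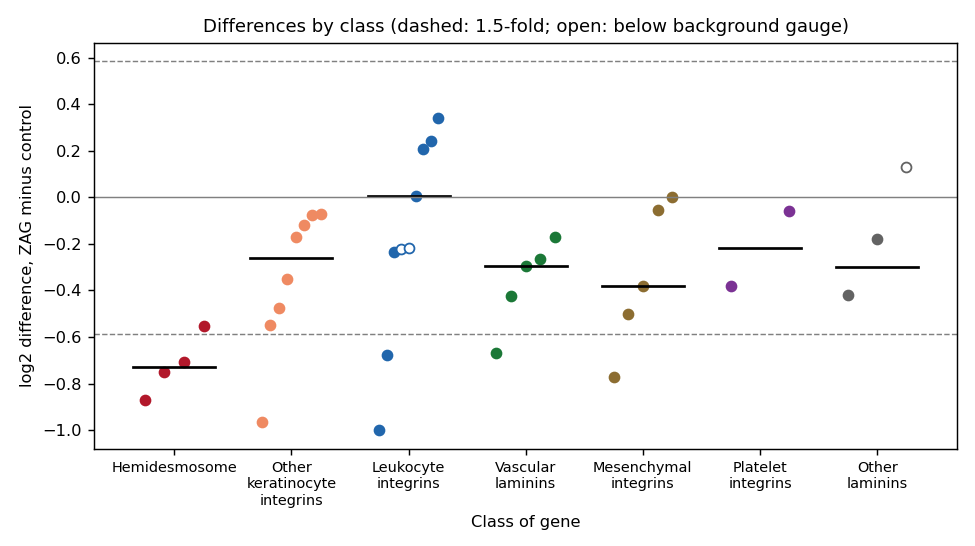
Log2 difference (ZAG minus control, vertical axis) of each gene by class, where horizontal bars are medians of genes at or above the gauge and open points are genes below it. Hemidesmosome genes sit between -0.87 and -0.55, and leukocyte integrins spread from -0.9997 to 0.34.

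Other proteins of the hemidesmosome and its anchor were lower to a smaller degree. Of 9 measured partner genes, 7 were lower and 2 higher, with a median of -0.31. At least 1.5-fold lower was 1 of the 9 (11.1%, against 4.53% of all genes). That gene was Krt14, the basal keratin that hemidesmosomes hold, at 11.35 in control and 10.62 with ZAG (-0.73). Col7a1, the anchoring fibril collagen, differed by -0.54, and Col17a1, the transmembrane collagen that binds β4, by -0.48. Plec, the plectin linker to keratin, differed by -0.46, whereas Cd151, a tetraspanin that accompanies α3 and α6 integrins, differed by only -0.12. Erbin, which binds β4, was at 0.21 and Frem2, a protein of the developing basement membrane, at 0.50, from a control level just below the gauge.

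Markers of basal and suprabasal keratinocytes stand beside these values. Of 6 measured basal markers, 5 were lower, with a median of -0.28 and a summed linear signal of 3453 in control and 2463 with ZAG. Krt14, at 11.35 in control and 10.62 with ZAG, made up most of that sum and of its fall. Trp63, the master regulator of basal cells, differed by -0.16, and Krt15, a keratin of resting basal and bulge cells, by 0.66. The 6 suprabasal markers had a median of -0.15 and a summed signal of 12756 and 12100. Krt14, Col17a1 and Dst stand in both the basal and the partner list. The part of basal cell number in the hemidesmosome values was not tested.

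The remaining integrins of keratinocytes were all lower, but by unequal amounts. Itga2, which pairs with β1 to bind collagen and is known to be raised in migrating and inflamed epidermis, read 6.08 in control and 5.12 with ZAG, a difference of -0.97 (1.95-fold lower). Itga5, the fibronectin receptor chain, read 5.48 and 4.94 (-0.55). Itga3, a laminin-332 receptor chain outside hemidesmosomes, read 6.59 and 6.11 (-0.48). These alpha chains differed by more than the beta chain that all of them pair with. Itgb1, that shared beta chain, read 8.51 and 8.34 (-0.17), less than the SD between probes of a gene.

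Differences were small for the chains known to activate latent TGF-beta. Itgb6, an epithelial chain raised in wounds, read 4.42 and 4.34 (-0.08). Itgb8, which also pairs with αV, read 6.62 and 6.50 (-0.12). Itgav, the αV chain, had 2 probes that averaged 4.84 and 4.76 (-0.07). Those Itgav probes disagreed: the brighter read 7.63 and 7.38 (-0.26) and the other, at 2.04 and 2.15, lay below the gauge. Itga9, a chain that binds tenascin and other matrix ligands, was at -0.35. The median of the 8 keratinocyte integrins was -0.26.

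Read by ligand, a grouping made after the values were seen, all 3 measured collagen-binding alpha chains were lower, with differences from -0.97 to -0.50. Itga1, a chain of fibroblasts, muscle cells, endothelium and resident T cells, read 5.95 in control and 5.18 with ZAG (-0.77, 1.71-fold lower). Itga11, the fibroblast collagen receptor chain, read 5.70 and 5.20 (-0.50). With Itga2, these make up the group. Itga1 and Itga2 are also direct neighbours in the RefSeq gene order. Of the laminin-binding alpha chains, Itga6 and Itga3 were lower, and Itga7, the muscle chain, was equal at 4.49 on both arrays. The chains that bind the RGD motif of fibronectin and vitronectin ranged from -0.55 in Itga5 to -0.05 in Itga8, a chain of smooth muscle.

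**Figure D3:**
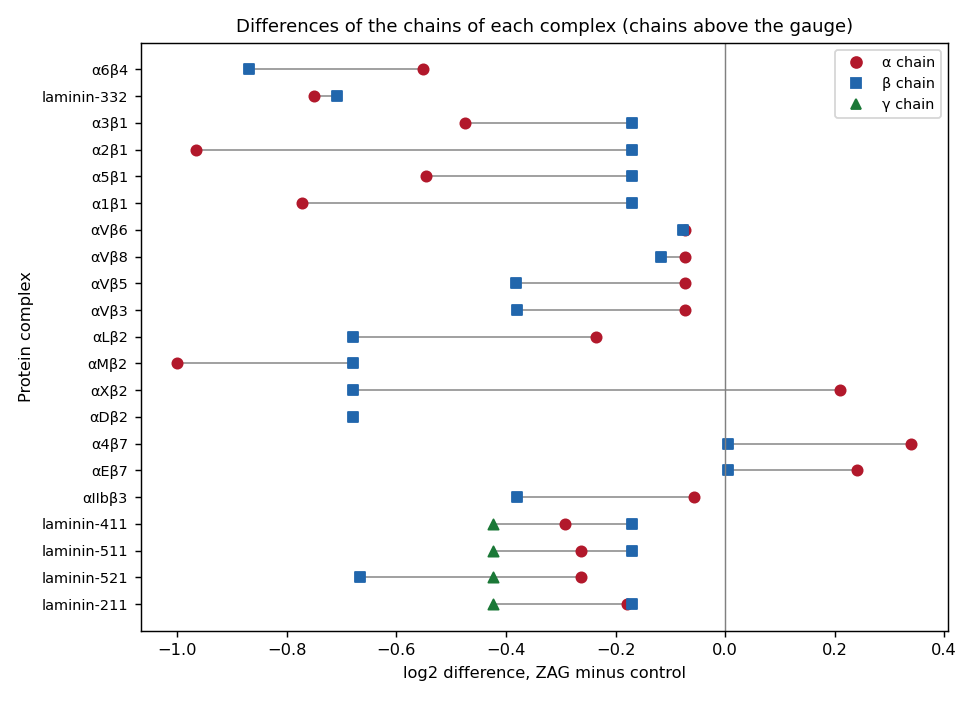
Log2 difference (ZAG minus control, horizontal axis) of the measured chains of each known complex, with circles for α, squares for β and triangles for γ chains, and only chains above the gauge drawn. Both chains of α6β4 and of laminin-332 lie at or below -0.55, whereas the chains of αXβ2 lie on opposite sides of 0.

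Of the leukocyte integrins above the gauge, Itgam, Itgb2 and Itgal were lower and the other 4 were level or higher. Itgam, the αM chain (CD11b) of neutrophils, monocytes and macrophages, read 5.84 in control and 4.84 with ZAG, a difference of -0.9997, the lowest of the family. Itgb2, the β2 chain (CD18) that every leukocyte carries and that pairs with αM, αL, αX and αD, read 5.74 and 5.06 (-0.68, 1.60-fold lower). Itgal, the αL chain of LFA-1 on lymphocytes and other leukocytes, read 3.84 and 3.61 (-0.24), within the SD between probes. Itgam and Itgb2 were thus the leukocyte chains past 1.5-fold.

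The other leukocyte chains above the gauge were not lower. Itga4, the α4 chain that binds VCAM-1 on vessels, read 4.48 in control and 4.82 with ZAG (0.34), the highest difference of the family. Itgae, the αE chain (CD103) that holds T cells and dendritic cells to E-cadherin of the epidermis, read 3.75 and 3.99 (0.24). Itgax, the αX chain (CD11c) of dendritic cells and some macrophages, read 3.71 and 3.92 (0.21). Itgb7, which pairs with α4 and αE, read 3.91 on both arrays (a difference of 0.01). Of these 4, Itga4 alone exceeded the SD between probes, and the others lay under 1 log2 unit above the gauge. Itga4 had a second, shared probe below the gauge (2.34 and 2.25), and with it averaged in the difference was 0.13.

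As a class the leukocyte integrins had a median of 0.01 over the 7 at or above the gauge, with 3 lower and 4 higher. Over all 9, with Itgad (2.56 and 2.34) and the neutrophil chain Itgb2l (2.47 and 2.26) counted, the median was -0.22, so the class median has no settled direction and the single chains describe it better. Itgam, Itgax and Itgad lie side by side in the RefSeq gene order. Of these, Itgam alone differed by more than the SD between probes, and Itgad lay below the gauge. A shared difference of these neighbours could therefore not be judged.

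Markers of the cell types that carry these chains were split as well. The 8 general leukocyte markers were all lower, with a median of -0.43 and a summed linear signal of 797 in control and 556 with ZAG, and Laptm5 (-1.07) was the lowest. The 5 of 8 neutrophil markers at or above the gauge had a median of -1.22 (summed signal of all 8, 1353 and 587). Most of that sum and of its fall came from S100a8 (-1.40) and S100a9 (-1.49). Csf3r, the G-CSF receptor gene, read 5.23 and 4.01, while Il1r2 was at -0.08. The 3 markers left out of that median had a mean level below the gauge. The neutrophil-specific Ly6g (2.46 and 2.48) and Mmp8 (3.04 and 2.60) were below it on both arrays, and Retnlg read 3.58 and 2.22. Which cells gave the S100a8 and S100a9 signal was not tested. The 7 macrophage and monocyte markers had a median of -0.63 (summed signal 913 and 560), with 6 lower, of which the scavenger receptor gene Cd163 was at -0.69. Dendritic and Langerhans cell markers had a median of 0.25 over 6 genes (summed signal of all 7 measured, 516 and 655), with 4 higher and 2 lower, from Xcr1, a chemokine receptor gene of dendritic cells (-0.49), to Cd207, the Langerhans cell lectin gene (0.53). T and NK cell markers had a median of -0.10 over 5 genes, from Cd2 (-0.21) to Cd3g (0.72). Over all 8 measured, their median was 0.04 and their summed signal 127 and 146, so this list has no settled direction. The part of cell number in the integrin values was not tested.

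The vascular laminins were all lower, with a median nearer 0 than that of the hemidesmosome genes. Lamb2, the beta chain of vessel and muscle basement membranes, read 6.11 in control and 5.44 with ZAG (-0.67, 1.59-fold lower). Lamc1, the gamma chain of nearly all laminins, read 7.27 and 6.85 (-0.42). Lama4, the alpha chain of laminin-411 and a main chain of vessel walls, read 6.73 and 6.44 (-0.29). Of the 5, Lamb2 alone passed 1.5-fold. Lama5, the alpha chain of laminin-511 in vessels and also in the epidermal and hair follicle basement membrane, read 5.48 and 5.22 (-0.26). Lamb1, the beta chain of both these trimers, read 7.38 and 7.21 (-0.17). The median of the class was -0.29.

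Blood endothelial markers had a similar median of -0.35 over 9 genes, with 7 lower and 2 higher, and a summed linear signal of 514 and 365. Cdh5, the endothelial cadherin gene, differed by -0.91 and Pecam1 by -0.62, while Tek, an angiopoietin receptor gene, was at 0.07. Lymphatic markers at or above the gauge had a median of -0.60 over 3 genes. Pericyte and smooth muscle markers were divided, with Pdgfrb at -0.84 and the smooth muscle gene Cnn1 at 0.44. The part of vessel cell number in the laminin values was not tested.

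Set against each other, the class medians were -0.73 for the hemidesmosome, -0.29 for the vascular laminins and 0.01 for the leukocyte integrins. Hemidesmosome minus vascular laminins came to -0.44, and hemidesmosome minus leukocyte integrins to -0.74. The latter gap depends on the filter, at -0.51 with all 9 leukocyte chains counted and -0.39 with the 4 at or above the median level of all genes. With shared probes counted, the gaps were -0.34 to the vascular laminins and -0.64 to the leukocyte integrins. The hemidesmosome range, -0.87 to -0.55, overlapped that of the vascular laminins, -0.67 to -0.17, through Itga6 and Lamb2. The difference of Itgam was below that of every measured hemidesmosome gene. These are orders of 4, 5 and 7 genes on a single pair of arrays, and the differences between classes were not tested.

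The remaining chains belong to mesenchyme, platelets and rarer laminins. Itgb5, a vitronectin receptor chain of fibroblasts and other cells, read 7.84 in control and 7.46 with ZAG (-0.38). Itgb3, the β3 chain of platelets, osteoclasts and activated endothelium, read 5.51 and 5.13 (-0.38), whereas its platelet partner Itga2b read 3.97 and 3.92 (-0.06). Platelet markers had a median of -0.13 over 3 genes, with Pf4 at 5.63 and 5.50. Lama2, the laminin chain of muscle and nerve, read 6.43 and 6.25 (-0.18), and Lamc3, a gamma chain of limited distribution, 4.33 and 3.91 (-0.42). Skeletal muscle markers ran the other way in the median (0.32 over 7 genes) but were divided, from Myh2 (-1.69) to Myh4 (1.59), with Itga7 level.

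Fibroblast markers, which stand beside the mesenchymal chains, had a median of -0.37 over 7 genes. The lowest was Pdgfra (-0.79), and the abundant proteoglycan gene Dcn was at 0.04. Hair shaft markers (0.49 over 6 genes) and adipocyte markers (0.42 over 5 genes) were higher in every measured member. No integrin or laminin class had a median as high as these.

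**Figure D4:**
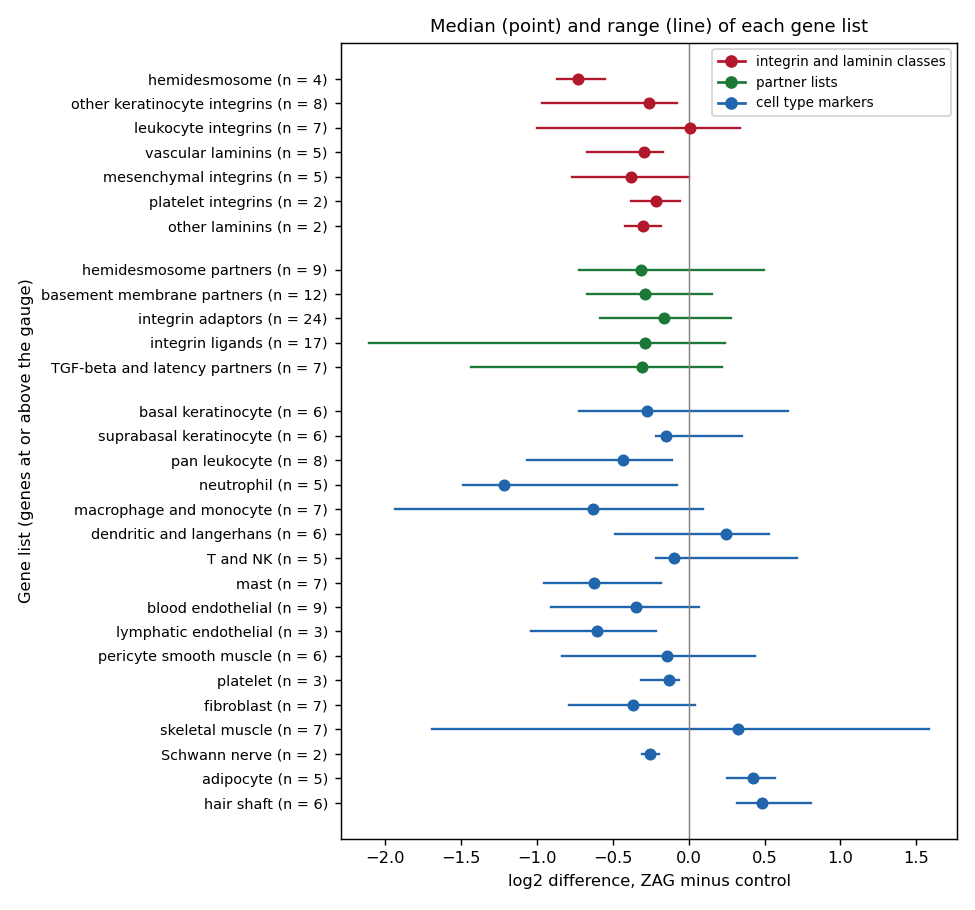
Median (point) and full range (line) of the log2 difference (ZAG minus control, horizontal axis) for each class of integrin and laminin genes, each partner list and each cell type marker list, over genes at or above the gauge, with their number. The hemidesmosome class has its median at -0.73 with no gene above -0.55, and neutrophil markers have the lowest median at -1.22.

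Other basement membrane genes were mostly lower too. Of 12 measured, 9 were lower and 3 higher, with a median of -0.29. At least 1.5-fold lower were 3 of the 12 (25%, against 4.53% of all genes). Nid1, the nidogen that links laminin γ1 to collagen IV, read 7.91 in control and 7.24 with ZAG (-0.67). Col4a2, a collagen IV chain, differed by -0.63, and its partner chain Col4a1 by -0.55, short of 1.5-fold. Fbln1, a fibulin gene, was at -0.59. At the other end, Agrn (0.05), Npnt (0.08) and Col4a5 (0.15) were slightly higher.

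Among the partner lists, the ligands of the integrins held the largest difference. Of 17 ligand genes at or above the gauge, 14 were lower, with a median of -0.28. At least 2-fold lower were 4 of the 17, against 0.989% of all genes. Tnc, the wound matrix protein bound by α9β1 and αV integrins, read 9.30 in control and 7.19 with ZAG (-2.11). Fn1, fibronectin, the ligand of α5β1, read 9.73 and 8.72 (-1.01), beside the Itga5 difference of -0.55. The matricellular genes Ccn1 and Ccn3 were at -1.37 and -1.17. For the leukocyte chains, Icam1, the endothelial ligand of αLβ2 and αMβ2, was at -0.38 and Vcam1, the ligand of α4β1, at -0.43, the latter opposite in sign to Itga4. Cdh1, the E-cadherin bound by αE, was at -0.15.

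Cytoplasmic adaptors of integrins had the median nearest 0 of the 5 partner lists. Of 24 at or above the gauge, 18 were lower and 6 higher, with a median of -0.16. In this list 0 genes were at least 1.5-fold lower, against 4.53% of all genes, and 0 were 1.5-fold higher, against 2.38%. The lowest were Apbb1ip, the RIAM adaptor of leukocytes (-0.58), Parva, a parvin that joins integrins to actin (-0.58), and Actn1, an actin crosslinker (-0.53). The talin gene Tln1 was at -0.28. The 3 kindlins, which bind beta chain tails, were at 0.18 in Fermt1 of keratinocytes, 0.00 in Fermt2 and -0.20 in Fermt3 of blood cells. Itgb1bp1, an inhibitor of β1 activation, was the highest at 0.28.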

How the data were processed

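Gene expression was measured on Affymetrix arrays, and the table used here holds 1 column for control and 1 for ZAG. The deposited values are log2, as inferred from their range, and the background correction, normalization and software the authors used are not stated in the sources used here. The column medians were 3.33 and 3.36. The number of arrays limits the precision.

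Of 33793 probes, 23521 had 1 gene symbol in the platform annotation, 1814 several and 8458 none, and probes with 1 symbol were averaged per gene. All 36 family genes matched RefSeq by gene identifier (GRCm38.p6). A gene counted as called when it differed by at least 1.5-fold and its mean level was at or above the background gauge, with any value under the gauge set to it. Every member is named, and of other lists mainly those at the extremes or with a named partner role. Members, lists, thresholds and motifs were chosen with earlier results of these data known, and further genes were named after their values were seen. Medians and calls were checked on simulated shifts. Alternatives covered scaling, probes, filters and the fold threshold. No test was run because each group has 1 array. The work used pandas 2.3.3 and numpy 2.4.6 in Python 3.11.15, with loess from statsmodels 0.14.6 (span 0.3) and plots from matplotlib 3.10.9.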

Additional observations from a re-analysis of the deposited data

How the results depend on the processing

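Of the class medians and counts, the leukocyte integrin median changed sign and the 1.5-fold count changed size. The leukocyte median of 0.0060 was -0.021 under median centring, -0.0073 after loess, -0.22 with no filter on level and -0.34 over the 4 genes at or above the median level of all genes. At 2-fold, 0 genes of the family were lower, in place of 8. The hemidesmosome, vascular laminin and whole-family medians moved by less than 0.1 under every scaling, probe and filter alternative run. Median centring, quantile normalization, loess and the brightest probe kept all 8 genes past 1.5-fold, and loess added Itga6. Counting shared probes lost Itgb4 (-0.43). Among genes above the gauge, the sign of Itgb7 alone changed, under median centring and loess. Of 22 partner and marker lists, 18 had a median below 0, and 17 to 18 had under the alternatives. No alternative shifted the median of all genes by over 0.1. No paired analysis was possible because each group has 1 array. Leaving out a replicate was not possible for the same reason.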

Other observations

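Genes of TGF-beta, some forms of which αV integrins are known to release, and of its latency proteins were mixed. Of 7 measured, 5 were lower and 2 higher, with a median of -0.31. Lrrc32, which holds latent TGF-beta on the cell surface, read 5.74 in control and 4.31 with ZAG (-1.43), and Tgfb1 read 7.21 and 6.25 (-0.95). Tgfb3 was at -0.42, Ltbp1, a latency binding protein gene, at -0.31, and Tgfb2 at 0.22. Mast cell markers, a further class of cells that carry β1 and β7 integrins, were lower in 7 of 7, with a median of -0.62.

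Itga7 had the same value to every deposited digit on both arrays, as had 60 of the 22180 genes.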
